A study of Mus musculus with 6 samples.

Results

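Liver-enriched transcription factors other than nuclear receptors were followed as 9 genes taken by name from the expression table: *Foxa1*, *Foxa2*, *Foxa3*, *Cebpa*, *Cebpb*, *Onecut1*, *Prox1*, *Gata4* and *Creb3l3*. Each of the 9 names matched 1 of the 57180 genes in the table, and all 9 were among the 14151 genes with enough counts to be tested. The rule names them as hepatocyte identity factors and uses no measured value, though the 9 factors were chosen with earlier results of these data known. RNA was sequenced from primary hepatocytes of male C57BL/6 mice, 8 to 10 weeks old by the methods, isolated from liver by collagenase perfusion. The LOXP group (3 libraries) came from mice with floxed STING alleles. The KO group (3 libraries) came from STING floxed mice crossed with Albumin-Cre mice, a cross that the paper describes as a hepatocyte-specific knockout. By the methods, hepatocytes were seeded in medium with 0.1 μM dexamethasone and 10% fetal bovine serum. The cells of both groups received 0.1 mM PA (palmitate, a saturated fatty acid) for 24 h, so neither group was without fatty acid. Whether the seeding medium was kept during PA is not stated. The labels do not say whether the libraries of a group came from separate mice, and p-values therefore measure the spread between these libraries, which may be technical.

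Hepatocyte identity is held by a small network of DNA-binding proteins that bind the promoters and enhancers of liver genes together and also bind each other's genes. The FOXA proteins are forkhead pioneer factors that can bind their sites in closed chromatin, C/EBPα and C/EBPβ are leucine-zipper proteins that serve metabolic and acute phase genes, and ONECUT1 (also called HNF6), PROX1 and GATA4 act from liver bud development onwards. CREB3L3 (also called CREBH) differs from the others in that it is made as a membrane protein of the endoplasmic reticulum and becomes an active transcription factor after proteolytic cleavage in the Golgi.

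Of the 9 factors, *Creb3l3* and *Prox1* fell and *Foxa1* rose in the libraries labelled KO, while the other 6 did not pass the test. The *Foxa1* call was near the threshold (adjusted p = 0.0479 in edgeR's quasi-likelihood test) and held in 9 of 16 alternative fits. It was lost in each fit that left out 1 library. *Creb3l3* was 33.7% below and *Prox1* 37.2% below their LOXP levels, and *Foxa1* was 30.3% above its own, in counts normalized between libraries. An adjusted p under 0.05 in edgeR's quasi-likelihood test was thus met by 2 of 9 factors in the lower direction, where 11.6% of all tested genes were called, and by 1 of 9 in the higher direction, where 11.5% were called. The median log2 fold change (KO relative to LOXP) was 0.07 over the 9 factors and 0.00 over all tested genes. By the authors' 3 criteria (a log2 fold change beyond 1 in either direction, an adjusted p under 0.05, and a group whose mean FPKM exceeds 1), 0 of the 9 factors were called by edgeR (0 also by DESeq2), against 1.49% of tested genes called lower and 0.558% called higher. FPKM relates a gene's count to its length and to the library's total.

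The libraries held between 14726983 and 18536985 counted reads, and edgeR's scaling factors ran from 0.973 to 1.02. *Sting1*, the gene targeted in the KO group, had 19, 16 and 23 counts in LOXP1, LOXP2 and LOXP3 and 24, 23 and 15 in KO1, KO2 and KO3 (log2 fold change -0.08, SE 0.298, adjusted p = 0.883). These counts overlapped and were not lower under the KO label, so each direction given here refers to libraries labelled KO. Which part of the gene the floxed allele loses is not given in the sources used here, and reads from the rest of the gene would not check the label. The paper reports that RT-PCR found the gene's mRNA in hepatocytes and that knockout cells lost it. That measurement is not analysed here. Hepatocyte markers dominated: the 20 listed, led by *Alb* and *Hpx*, summed to between 16810 and 18950 FPKM in LOXP and between 12700 and 12860 in KO, with 15 of 20 lower and 0 higher by edgeR (0 higher also by DESeq2 and at an unadjusted p under 0.05). Of 8 cholangiocyte markers, led by *Cldn4* and *Sox9*, 5 were tested, 3 were lower by edgeR and DESeq2 and 1 (*Krt19*) higher by edgeR (0 by DESeq2). The 8 summed to 124 to 145 FPKM in LOXP and 65.7 to 77.0 in KO. Most of this sum was *Cldn4*, with a mean of 111 FPKM in LOXP and 55.8 in KO. The markers not tested had too few counts: *Krt7* had 0 to 5, *Epcam* 2 to 12 and *Cftr* 0 to 4. Which cells gave the *Cldn4* reads was not tested. The 20 macrophage markers, led by *Cd14* and *Cd68*, summed to 108 to 118 FPKM in LOXP and 89.2 to 99.2 in KO. Mean *Cd68* was 37.55 FPKM in LOXP and 21.06 in KO, and mean *Cd14* was 36.77 and 36.93. By edgeR 3 of 16 tested were lower and 0 higher, and 1 was higher by DESeq2 and at an unadjusted p under 0.05. Calls over all tested genes were 11.6% lower and 11.5% higher. Sinusoidal endothelial markers (16 in the table, led by *Cdh5* and *Lyve1*) summed to 37.2 to 41.4 FPKM and 35.7 to 39.3 FPKM with 1 of 14 tested lower, and the 15 stellate cell and fibroblast markers (led by *Ecm1* and *Sparc*) to 19.7 to 22.1 FPKM and 20.8 to 22.6 FPKM with 0 of 12 tested called in either direction by edgeR or DESeq2 (0 lower and 2 higher at an unadjusted p under 0.05). Of 10 neutrophil genes, where *Csf3r* and *S100a9* were the most abundant, none was tested and *Ly6g*, *Mpo*, *Camp* and *Retnlg* were at 0 in every library, and of 14 lymphocyte genes 13 were at 0 and *Cd79b* had at most 2 counts. In bulk RNA, fewer cells of a type and less RNA per cell cannot be told apart. The part of these shifts in the changes of the factors was not tested.

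The sequences before the starts of the 3 factors that passed the test are shown because their own transcript level was called, for *Foxa1* near the threshold. They are RefSeq windows of mouse build GRCm38.p6, on the minus strand and written 5′ to 3′ up to the transcript start, with bases that the annotation places in an exon left out. Positions of genes elsewhere in the text are those of the table, whose build is GRCm39 per the submitters' processing notes, and the builds were not mixed. Capitals mark a forkhead motif in *Foxa1* and a TATA box, read on the other strand, in *Prox1*, and the *Creb3l3* window holds no match to any motif searched.
Creb3l3, chr10:81098875-81099122: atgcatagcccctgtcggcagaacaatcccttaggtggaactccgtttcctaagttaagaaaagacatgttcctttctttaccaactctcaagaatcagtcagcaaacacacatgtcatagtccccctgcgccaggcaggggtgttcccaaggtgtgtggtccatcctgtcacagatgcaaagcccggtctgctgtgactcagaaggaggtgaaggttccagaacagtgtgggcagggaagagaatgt
Prox1, chr1:190170828-190171077: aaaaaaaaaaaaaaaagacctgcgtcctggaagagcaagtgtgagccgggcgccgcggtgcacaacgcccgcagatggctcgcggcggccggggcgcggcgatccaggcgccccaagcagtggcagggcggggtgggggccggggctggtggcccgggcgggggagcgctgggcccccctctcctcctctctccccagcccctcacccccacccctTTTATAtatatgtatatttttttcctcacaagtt
Foxa1, chr12:57546122-57546361: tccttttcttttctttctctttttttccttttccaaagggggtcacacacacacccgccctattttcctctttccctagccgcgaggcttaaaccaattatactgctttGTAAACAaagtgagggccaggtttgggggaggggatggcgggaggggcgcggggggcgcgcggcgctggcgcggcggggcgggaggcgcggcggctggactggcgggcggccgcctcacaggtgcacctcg

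The *Foxa1* motif GTAAACA begins 141 bases before the RefSeq start and the *Prox1* TTTATA begins 34 bases before it. GENCODE M21 places the outermost start of *Foxa1* 805 bases upstream of the RefSeq start, so the *Foxa1* window lies between the 2 annotated starts, and that of *Prox1* 113 bases downstream. Windows were found for 8 of the 9 factors, and 7 motifs were searched on both strands of the 250 bases before the start. A forkhead motif (TGTTTAC or TATTTAC) was present in 1 of 8 factor windows, that of *Foxa1*, and in 5.76% of all 32851 windows. The ONECUT motif ATTGAT was in 1 of 8, that of *Foxa2*, against 6.72% of all windows. TATAAA was in 3 of 8 (*Foxa3*, *Cebpa* and *Prox1*) against 12.4%, and TGACG, the core of the cAMP response element, in 2 of 8 (*Cebpb* and *Onecut1*) against 17.8%. The C/EBP motif (TTGCNNAA or TTNNGCAA), the GATA motif AGATAA and the nuclear receptor motif AGGTCA were in 0 of 8 factor windows and in 9.56%, 9.99% and 14.0% of all windows. A match of letters is a description and says nothing of binding.

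The factors covered a wide range of expression, which the deposited FPKM allow to be compared per length. *Cebpb* was the most abundant, with a mean of 148 FPKM over the 6 libraries, and stood above each other factor in 6 of 6 libraries. It was followed by *Creb3l3* (23.5 FPKM), *Cebpa* (19.1), *Foxa3* (14.4), *Foxa2* (8.40), *Foxa1* (6.46), *Gata4* (3.09) and *Prox1* (2.41), and *Onecut1* was last at 0.255 FPKM. By rank among the 14151 tested genes, *Cebpb* was number 332 and *Onecut1* number 13141. Neighbours in this order were not always separate: *Creb3l3* exceeded *Cebpa* in 3 of 6 libraries, *Gata4* exceeded *Prox1* in 3 of 6 and *Foxa2* exceeded *Foxa1* in 5 of 6. For *Creb3l3* with *Cebpa*, and for *Gata4* with *Prox1*, ranges overlapped because the pairs stood in opposite order in LOXP and KO libraries. For *Gata4* with *Prox1* this held only with the length behind the deposited FPKM, as given below. *Cebpa* was above *Foxa3* in 6 of 6 libraries although their ranges over libraries overlapped.

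**Figure D1:**
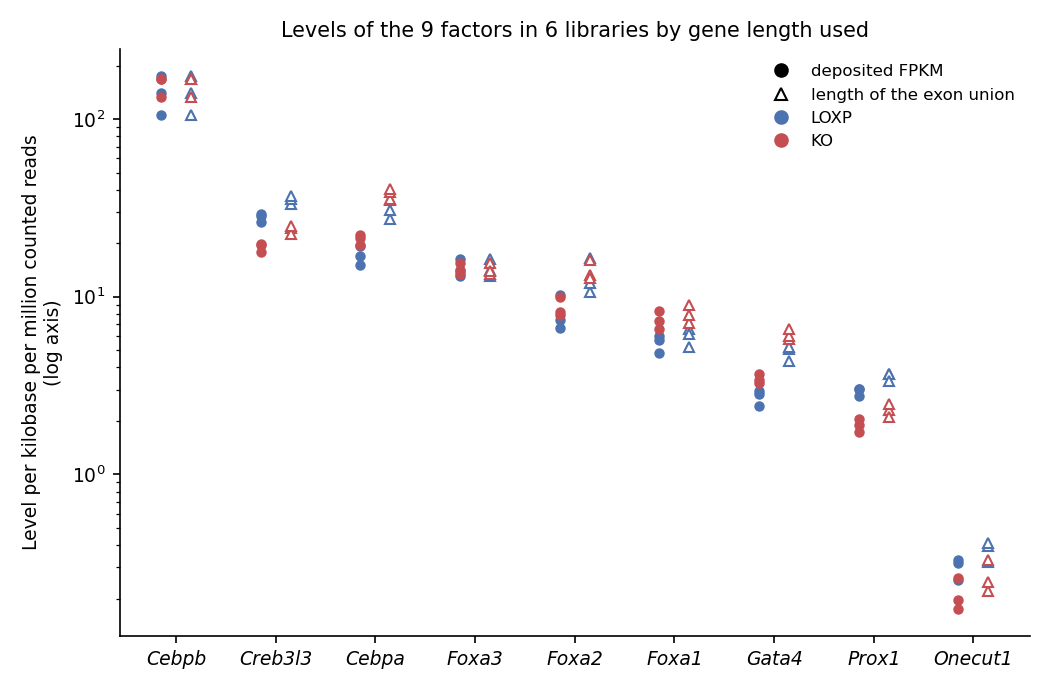
Level of each factor in each of the 6 libraries, in units of FPKM on a log axis, with filled circles for the deposited FPKM and open triangles for values recomputed with the length of the exon union (blue LOXP, red KO). *Cebpb* leads with a mean of 148 and *Onecut1* is last, and *Cebpa* moves from a mean of 19.1 to 34.7 with the other length.

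The order near the top, and how far some neighbours stood apart, depended on the gene length used. The length implied by count and FPKM equalled the sum of all distinct annotated exons, in which overlapping exons count more than once, for 9 of 9 factors, and equalled the union of exons for 2 of them, *Cebpb* and *Foxa3*. The intronless *Cebpa* shows this most plainly, with an implied length of 4787 bases against 2636 bases for the whole gene. With the length of the exon union from GENCODE M21, an alternative chosen after the data had been seen, the means became 148 for *Cebpb*, 34.7 for *Cebpa*, 29.6 for *Creb3l3*, 14.4 for *Foxa3*, 13.5 for *Foxa2*, 6.997 for *Foxa1*, 5.50 for *Gata4*, 2.92 for *Prox1* and 0.321 for *Onecut1*. *Cebpa* and *Creb3l3* then changed places, and *Cebpa* still exceeded *Creb3l3* in 3 of 6 libraries only. *Gata4* exceeded *Prox1* in 6 of 6 libraries with this length, and their ranges no longer overlapped. *Foxa2* exceeded *Foxa1* in 6 of 6. *Foxa3* exceeded *Foxa2* in 4 of 6 with overlapping ranges, against 6 of 6 without overlap in the deposited FPKM. Fold changes between groups do not depend on this length.

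**Figure D2:**
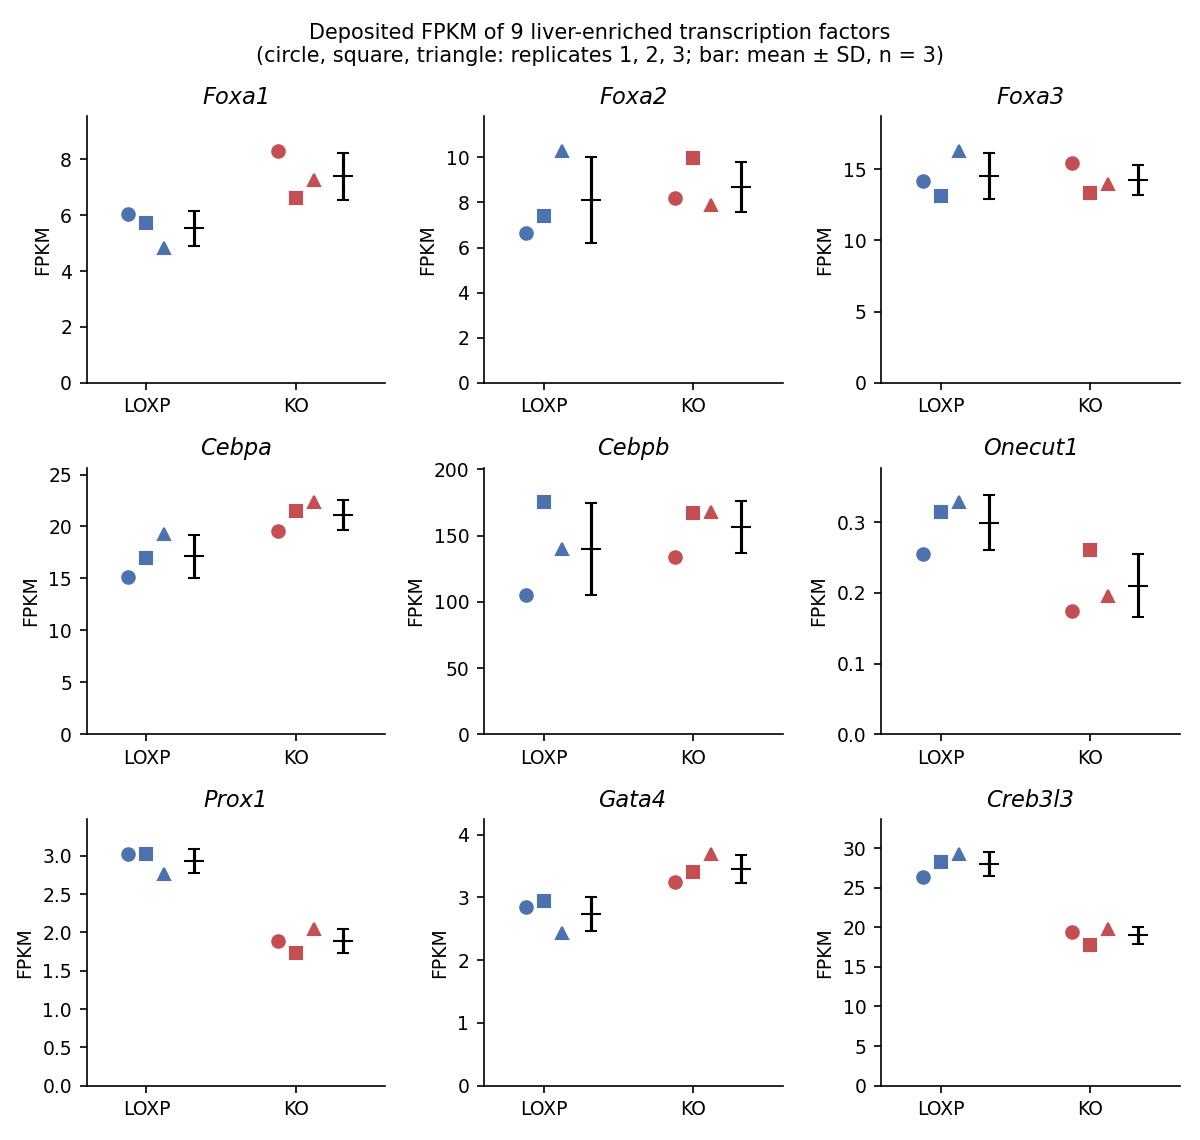
Deposited FPKM of each factor on a linear axis from 0, with a point for each library (circle, square and triangle for replicates 1, 2 and 3) and the mean ± SD of 3 libraries beside them. KO points lie below all LOXP points for *Prox1* (1.89 against 2.93 FPKM on average) and *Creb3l3* (19.0 against 28.0), and above them for *Foxa1* (7.39 against 5.53), *Gata4* (3.45 against 2.74) and *Cebpa* (21.1 against 17.1).

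*Foxa1* (ENSMUSG00000035451, chromosome 12 from 57587414 to 57593702) encodes a forkhead pioneer factor. It stood at 6.04, 5.71 and 4.83 FPKM in LOXP1, LOXP2 and LOXP3 and at 8.30, 6.60 and 7.27 FPKM in KO1, KO2 and KO3. Each KO library was above each LOXP library, with the gap smallest between KO2 and LOXP1. The log2 fold change was 0.38 (SE 0.117, 95% interval 0.11 to 0.65), with an adjusted p of 0.0479 in edgeR's quasi-likelihood test. This call did not survive the loss of any library, since the adjusted p lay between 0.0544 (without LOXP1) and 0.155 (without KO1) in the 6 fits that left 1 out. With every gene that had at least 1 count it was 0.0828, and the log2 fold change was above 0 in 16 of 16 alternatives.

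*Foxa2* (ENSMUSG00000037025, chromosome 2 from 147884797 to 147888889) encodes the forkhead factor that acts earliest in endoderm and also controls bile acid and lipid genes in adult liver. It measured 6.64, 7.39 and 10.3 FPKM in the LOXP libraries and 8.22, 9.97 and 7.89 FPKM in the KO libraries. The lowest and the highest value were both LOXP libraries, so the groups overlapped fully. Its log2 fold change was 0.07 (95% interval -0.31 to 0.45, adjusted p = 0.810), and the interval leaves room for a difference in either direction.

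*Foxa3* (ENSMUSG00000040891, chromosome 7 from 18747209 to 18757463) encodes the forkhead factor that is most abundant in adult liver. Its values were 14.2, 13.1 and 16.3 FPKM in LOXP and 15.4, 13.3 and 14.0 FPKM in KO. Again the LOXP libraries held both the lowest and the highest value. The log2 fold change was -0.06 (95% interval -0.29 to 0.16, adjusted p = 0.686), the narrowest interval among the FOXA genes.

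The balance among the FOXA genes was compared as each gene's share of their summed FPKM, since the proteins recognise the same motif. *Foxa3* made up 52.8%, 50.1% and 51.8% of the sum in the LOXP libraries and 48.3%, 44.6% and 48.0% in the KO libraries. Every KO share of *Foxa3* was below every LOXP share (51.6% ± 1.39 against 47.0% ± 2.03, SD, n = 3 each, exact two-sided permutation p = 0.1, the smallest that 3 against 3 allows, and 0.3 after adjustment over the 3 genes). *Foxa1* took 22.5%, 21.8% and 15.4% in LOXP and 26.0%, 22.1% and 25.0% in KO, with groups that overlapped (exact permutation p = 0.2, adjusted 0.3). *Foxa2* averaged 28.6% in LOXP and 28.7% in KO (exact permutation p = 1). The summed FOXA level was 28.2 ± 2.80 FPKM in LOXP and 30.3 ± 1.43 FPKM in KO (SD, n = 3 each, exact permutation p = 0.3), so the summed FPKM overlapped between groups. With the exon union length, *Foxa3* held 43.3% of the sum in LOXP and 39.3% in KO.

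**Figure D3:**
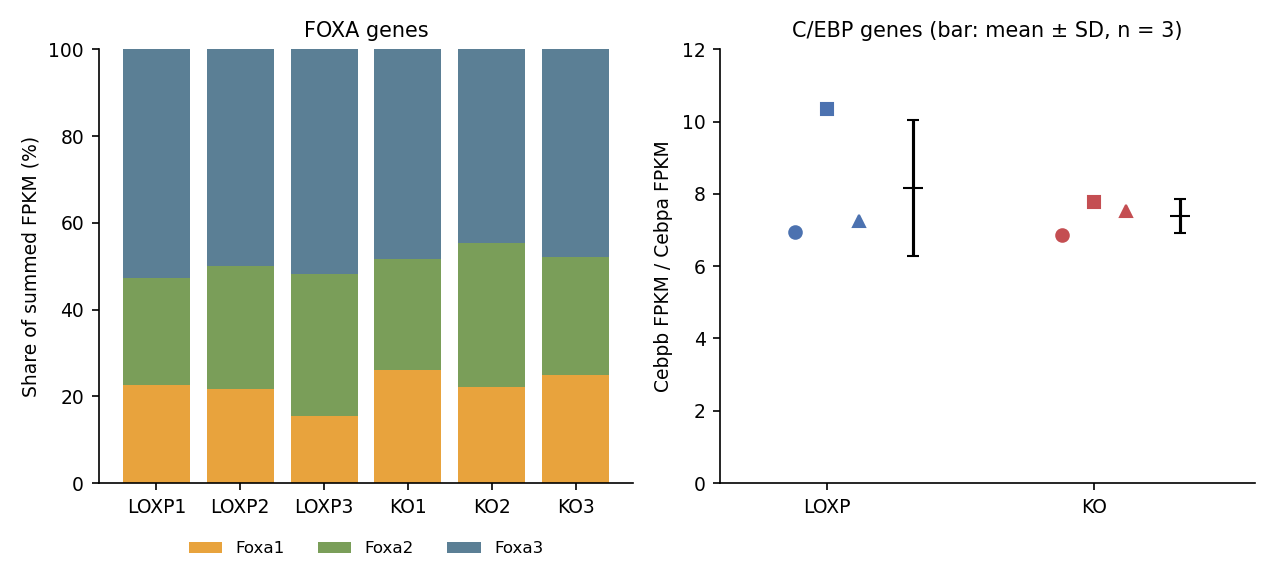
Left, share of *Foxa1*, *Foxa2* and *Foxa3* in their summed FPKM (%) as stacked bars for each library. Right, ratio of *Cebpb* to *Cebpa* FPKM in each library (points) with mean ± SD (n = 3). The *Foxa3* share is 50.1% or more in each LOXP library and 48.3% or less in each KO library, and LOXP2 has the highest C/EBP ratio, 10.3.

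*Cebpa* (ENSMUSG00000034957, chromosome 7 from 34818718 to 34821353) encodes C/EBPα, which supports metabolic genes of the quiescent hepatocyte. It stood at 15.2, 16.9 and 19.3 FPKM in LOXP and at 19.5, 21.5 and 22.3 FPKM in KO. The KO libraries were the higher ones in FPKM by a narrow margin, and after scaling between libraries LOXP3 (93.3 normalized CPM) passed KO1 (92.4 CPM). The log2 fold change was 0.27 (SE 0.0974, 95% interval 0.04 to 0.49), and its adjusted p of 0.0856 missed the threshold. With 1 library left out, the log2 fold change ran from 0.18 without LOXP1, where *Cebpa* was lowest (adjusted p = 0.174), to 0.36 without LOXP3 (adjusted p = 0.0404), and the highest adjusted p was 0.210, without KO2.

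*Cebpb* (ENSMUSG00000056501, chromosome 2 from 167530835 to 167532338) encodes C/EBPβ, which is induced by cytokines, stress and glucocorticoid and drives acute phase genes. It varied most among LOXP libraries, at 105, 175 and 140 FPKM, and stood at 134, 167 and 168 FPKM in KO. LOXP1 was the lowest and LOXP2 the highest of all 6 libraries. The coefficient of variation was 26.3% in LOXP and 12.6% in KO, against 6.06% and 4.66% for *Creb3l3*. The log2 fold change was 0.12 (95% interval -0.28 to 0.52, adjusted p = 0.668). The table places *Peds1* over 908 bases of *Cebpb*. *Peds1* had 588 to 1062 counts (log2 fold change 0.15, adjusted p = 0.475), and the strand setting of the counting is not given in the sources used here, so how shared reads were divided is uncertain.

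The C/EBP genes were set against each other as a ratio, because the proteins pair with each other and bind the same sites. *Cebpb* exceeded *Cebpa* by 6.94, 10.3 and 7.24 times in LOXP and by 6.86, 7.77 and 7.53 times in KO. LOXP2 stood alone above the other 5 libraries. The ratios of 8.17 ± 1.89 and 7.39 ± 0.475 (SD, n = 3 each) did not differ beyond their spread (exact two-sided permutation p = 0.8). With the exon union length for *Cebpa*, the ratios became 4.50 and 4.07.

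*Onecut1* (ENSMUSG00000043013, chromosome 9 from 74769203 to 74799063), a cut-homeodomain factor of hepatocytes and bile ducts, was barely expressed. It had 21, 24 and 26 counts in LOXP and 14, 25 and 17 counts in KO, which is 0.256, 0.315 and 0.328 FPKM and 0.175, 0.261 and 0.196 FPKM. KO2 fell among the LOXP libraries. The log2 fold change of -0.53 came with an SE of 0.274 and an interval from -1.16 to 0.10 (adjusted p = 0.205), and this interval holds both 0 and the log2 fold change of *Prox1*. Its paralog *Onecut2* was more abundant, at 2.91 ± 0.254 FPKM in LOXP and 3.61 ± 0.266 FPKM in KO, and was called higher at an adjusted p of 0.0469 (log2 fold change 0.28). That call held in 4 of 16 alternatives, and the adjusted p was 0.0622 by edgeR's exact test, 0.0610 by its likelihood ratio test and up to 0.139 with 1 library left out. *Onecut3* had 0 counts in every library. The ratio of *Onecut2* to *Onecut1* was 12.5, 9.06 and 8.19 in LOXP and 20.4, 12.9 and 19.9 in KO, with no overlap but with few *Onecut1* counts behind each ratio (exact permutation p = 0.1, the smallest possible).

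*Prox1* (ENSMUSG00000010175, chromosome 1 from 189850232 to 189902911) encodes a homeobox factor that marks hepatoblasts early and acts as a corepressor of nuclear receptors in adult hepatocytes. Its level was 3.03, 3.02 and 2.76 FPKM in LOXP1, LOXP2 and LOXP3 and 1.89, 1.73 and 2.05 FPKM in KO1, KO2 and KO3. The groups were widely apart, with the highest KO library below the lowest LOXP library. *Prox1* fell by 0.67 on the log2 scale (SE 0.0895, 95% interval of the log2 fold change -0.87 to -0.47, adjusted p = 0.00139), from 2.93 ± 0.153 to 1.89 ± 0.158 FPKM (SD, n = 3 each). It passed in 16 of 16 alternatives, with adjusted p from 6.33e-07 to 0.00887. *Prox1* also marks lymphatic endothelium: of the 4 markers of those cells listed, *Pdpn*, *Ccl21a* and *Mmrn1* were at 0 counts in every library, and the whole list, in effect *Flt4*, summed to between 2.86 and 4.17 FPKM in LOXP and between 3.07 and 3.42 in KO. *Flt4* had a log2 fold change of -0.25 (adjusted p = 0.220). Antisense and overlapping genes held few reads: *Prox1os* had 0 to 11 counts, *Gm57154* 0 to 3 and *Gm28172* 0, against 298 to 488 for *Prox1*.

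*Gata4* (ENSMUSG00000021944, chromosome 14 from 63436371 to 63509141) encodes a zinc finger factor of liver bud, hepatocytes and sinusoidal endothelium. It measured 2.84, 2.94 and 2.43 FPKM in LOXP and 3.25, 3.40 and 3.69 FPKM in KO. Each KO library was above each LOXP library, yet the log2 fold change of 0.30 (SE 0.102, 95% interval 0.06 to 0.53) had an adjusted p of 0.0691 and missed the threshold. Its paralog *Gata6*, at 2.10, 1.98 and 2.09 FPKM in LOXP and 3.01, 2.86 and 2.51 FPKM in KO, did pass (log2 fold change 0.41, SE 0.0953, adjusted p = 0.0175), as in 13 of 16 alternatives, but not without LOXP2, KO1 or KO2 (adjusted p from 0.0502 to 0.0690). The ratio of *Gata6* to *Gata4* was 0.758 ± 0.0932 in LOXP and 0.816 ± 0.126 in KO (SD, n = 3 each, exact permutation p = 0.6), so the difference between the paralogs lay within the spread. The sinusoidal endothelial markers given above had overlapping sums.

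*Creb3l3* (ENSMUSG00000035041, chromosome 10 from 80920158 to 80934708) encodes CREBH, a hepatocyte factor that responds to fasting and to stress of the endoplasmic reticulum. It stood at 26.3, 28.3 and 29.3 FPKM in LOXP1, LOXP2 and LOXP3 and at 19.4, 17.8 and 19.8 FPKM in KO1, KO2 and KO3. All KO libraries lay well below the LOXP libraries, and replicates within a group were close together. *Creb3l3* fell by 0.59 on the log2 scale (SE 0.0710, 95% interval of the log2 fold change -0.76 to -0.43, adjusted p = 8.44e-04), from 28.0 ± 1.51 to 19.0 ± 1.07 FPKM (SD, n = 3 each). It passed in 16 of 16 alternatives, with adjusted p from 1.72e-09 to 0.00597. *Thop1*, which lies 1764 bases away and does not overlap it, was higher in KO (log2 fold change 0.29, adjusted p = 0.0404).

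CREB3 relatives of *Creb3l3*, which share its membrane anchor and its activation by cleavage, did not move as 1 group. *Creb3* was at 37.0, 37.9 and 37.8 FPKM in LOXP and 24.5, 24.6 and 25.2 in KO, and fell by 0.64 on the log2 scale (SE 0.0556, adjusted p = 2.03e-04). *Creb3l2* also fell, from 11.5 ± 1.04 to 8.20 ± 1.03 FPKM (log2 fold change -0.53, adjusted p = 0.00754). The weakly expressed *Creb3l1* and *Creb3l4* had log2 fold changes of 0.41 and 0.76 and did not pass (adjusted p = 0.207 and 0.0785). *Creb3l3* made up 34.1%, 36.0% and 36.6% of the family's summed FPKM in LOXP and 35.3%, 34.5% and 35.6% in KO (exact permutation p = 0.6), so its share overlapped between groups while its level did not.

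Normalized counts that did not overlap between the groups were found for *Prox1* and *Creb3l3* in the lower direction (2 of 9, against 20.3% of tested genes) and for *Foxa1* and *Gata4* in the higher direction (2 of 9, against 20.4%). For each of these 4 genes an exact two-sided permutation test on its own gave p = 0.1, the smallest that 3 libraries against 3 allow. LOXP3 held the highest normalized count of 4 factors and LOXP2 of 2, KO3 of 2 and KO1 of 1, and the lowest values were in LOXP1 and KO2 for 3 factors each, in LOXP3 for 2 and in KO1 for 1. No library was thus high or low for all 9.

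**Figure D4:**
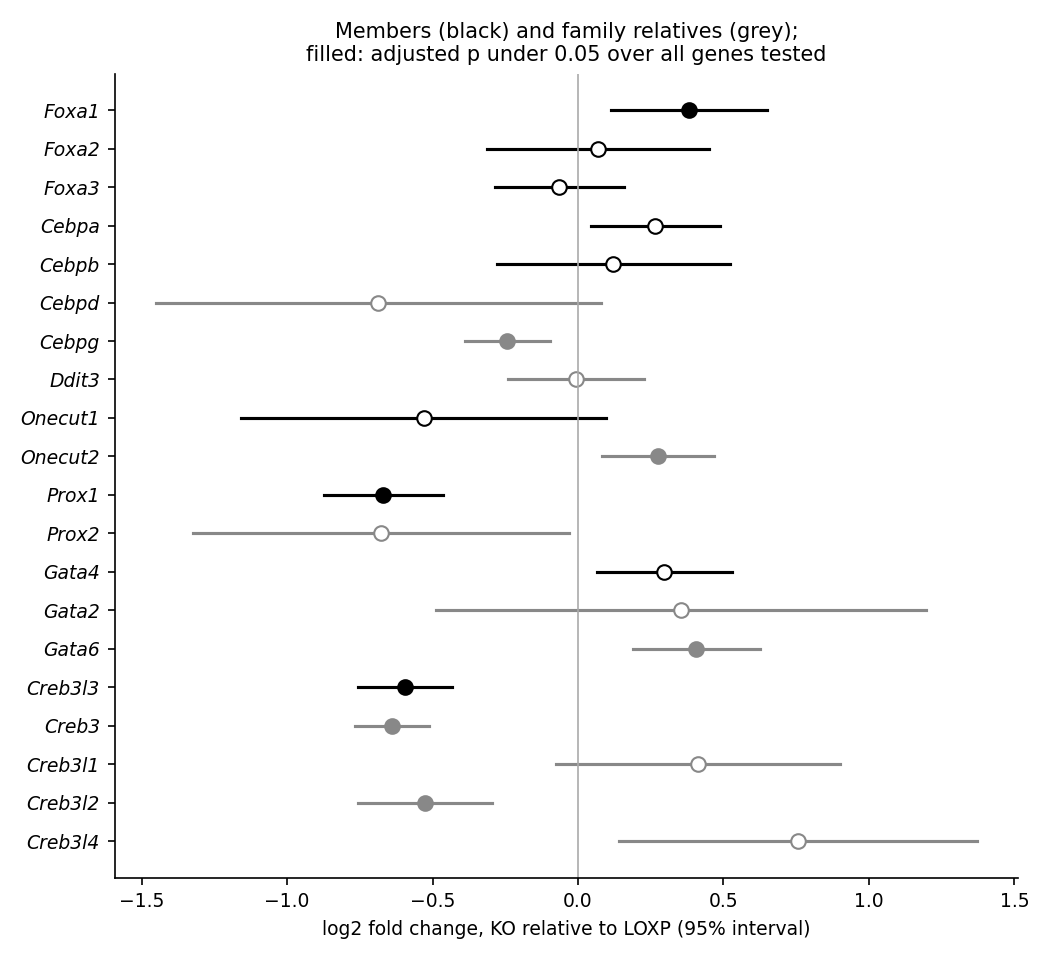
Log2 fold change (KO relative to LOXP) with 95% interval for the 9 factors (black) and the 11 family relatives tested (grey), where filled symbols passed the test at 0.05 after adjustment over the whole table. *Prox1* and *Creb3l3* lie at -0.67 and -0.59 beside *Creb3* at -0.64, and *Foxa1*, *Onecut2* and *Gata6* are the filled symbols above 0.

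Of 14 family relatives listed, 11 were tested, 3 fell and 2 rose, with a median log2 fold change of -0.01, beside the 11.6% lower and 11.5% higher over all tested genes. The 3 that fell were *Creb3*, *Creb3l2* and *Cebpg* (log2 fold change -0.24, adjusted p = 0.0280), which encodes a C/EBP protein without an activation domain and passed in 11 of 16 alternatives. *Cebpd*, an acute phase C/EBP gene, was at 2.58, 6.88 and 3.20 FPKM in LOXP and 3.06, 2.49 and 2.54 FPKM in KO, so that LOXP2 was the highest library for it as for *Cebpb* (log2 fold change -0.69, adjusted p = 0.182). Among 13 further hepatocyte transcription factors that are not nuclear receptors, 3 fell and 0 rose by edgeR, with a median of -0.23, and 0 rose by DESeq2 or at an unadjusted p under 0.05. These were *Xbp1*, a factor of the unfolded protein response, from 29.4 ± 0.996 to 21.4 ± 1.64 FPKM (log2 fold change -0.49, adjusted p = 0.00206), *Klf15*, a glucocorticoid-induced factor of amino acid metabolism (log2 fold change -0.56, adjusted p = 0.0287), and *Hhex*, a homeobox factor of the liver bud (log2 fold change -0.29, adjusted p = 0.0360). *Xbp1* passed in 16 of 16 alternatives, *Klf15* in 10 and *Hhex* in 7, and by limma *Xbp1* was the only 1 of the 13 called lower.

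Hepatocyte nuclear receptors, which share enhancers with the factors above, were lower for 5 of 8 and higher for 0 of 8 by edgeR. Over all tested genes, 11.6% were called lower and 11.5% higher. By DESeq2 and at an unadjusted p under 0.05, 0 of the receptors were higher as well, and their median log2 fold change was -0.57. *Hnf4a*, the nuclear receptor at the centre of the network, was at 34.2, 32.02 and 36.0 FPKM in LOXP and 24.1, 22.1 and 23.3 in KO (log2 fold change -0.59, SE 0.0582, adjusted p = 3.38e-04). No KO library reached the lowest LOXP library. *Nr1i2*, the xenobiotic receptor PXR, had a log2 fold change of -1.37 (adjusted p = 4.97e-04) and *Nr1h4*, the bile acid receptor FXR, of -0.54 (adjusted p = 0.00939).

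Genes known as targets of the factors were listed by factor, and several genes stand in more than 1 list, so the lists are not independent. Of 16 FOXA targets, 12 fell and 3 rose, with a median log2 fold change of -0.40. Among all tested genes, 11.6% were called lower and 11.5% higher. The lower ones included *Serpina1e*, an α1-antitrypsin gene whose near-identical paralogs may share its reads (log2 fold change -0.94, adjusted p = 5.59e-06), *Cps1*, the entry enzyme of the urea cycle (-1.24, adjusted p = 2.66e-05), and *Igfbp1*, a secreted binding protein of insulin-like growth factors (-1.40, adjusted p = 8.81e-05). The 3 that rose were *Afp*, the fetal serum protein (0.78, adjusted p = 0.00126), and the canalicular transporter genes *Abcb11* (0.41, adjusted p = 0.00941) and *Abcc2* (0.26, adjusted p = 0.0198, called in 13 of 16 alternatives).

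C/EBP targets had a median log2 fold change of -1.01, the largest median shift of the lists compared. The lists were chosen with earlier results of these data known, so their order depends on which genes were listed. Acute phase genes are among these targets, and their part in the median was not tested. By edgeR 17 of 20 were lower and 0 of 20 higher, where 11.6% and 11.5% of all tested genes were called. By DESeq2 and at an unadjusted p under 0.05, 0 were higher as well. *Cebpa* and *Cebpb* themselves stood at 0.27 and 0.12 without passing the test. The smallest adjusted p belonged to acute phase genes: *Saa1* went from 354 ± 15.6 to 68.7 ± 1.55 FPKM (log2 fold change -2.40, adjusted p = 3.47e-08), *Saa2* had a log2 fold change of -2.60 (adjusted p = 1.19e-07) and *Orm2* of -2.32 (adjusted p = 1.33e-06). These genes have close paralogs, and how reads were divided among copies is uncertain.

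CREBH targets moved in both directions, with 6 of 16 lower, 3 higher and a median log2 fold change of -0.10. The shares over all tested genes were 11.6% lower and 11.5% higher. *Fgf21*, a fasting hormone of the liver, was at 10.8, 8.997 and 12.1 FPKM in LOXP and 3.05, 1.93 and 2.82 FPKM in KO (log2 fold change -2.07, adjusted p = 3.11e-04). *Crp*, an acute phase gene (-0.98, adjusted p = 6.78e-04), and *Insig2*, which restrains sterol synthesis from the endoplasmic reticulum (-0.56, adjusted p = 0.00115), also fell. *Apoa4*, an apolipoprotein gene that CREBH is known to induce, rose by contrast from 1321 ± 51.0 to 2039 ± 59.1 FPKM (log2 fold change 0.59, adjusted p = 2.45e-04), as did *Fads2*, a fatty acid desaturase gene (0.36, adjusted p = 0.00821), and *Cidec*, a lipid droplet gene (0.62, adjusted p = 0.0303, called in 9 of 16 alternatives). *Apoa4* thus moved opposite to *Creb3l3* itself.

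Among all tested genes, 11.6% were called lower and 11.5% higher. Of 11 genes associated with ONECUT1, PROX1 or GATA4, 9 were tested, 6 fell and 0 rose by edgeR, with a median of -0.59. By DESeq2 and at an unadjusted p under 0.05, 0 rose as well. They include *Hnf4a* and *Ttr*, the thyroid hormone transport protein (log2 fold change -0.46, adjusted p = 5.66e-04). *Cyp7a1* and *Epo* had too few counts to be tested. Over the 79 distinct genes of the factor and target lists other than the 9 factors, 74 were tested, 38 fell and 8 rose, with a median log2 fold change of -0.36. Of the 20 hepatocyte markers, with a median log2 fold change of -0.48, 15 were lower in the same libraries. These markers are not separate from the target lists: *Alb*, *Ttr*, *Tat*, *Cps1*, *Hp* and *Serpina1c* are also FOXA or C/EBP targets listed here. The part of the hepatocyte markers in these counts was not tested.

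**Figure D5:**
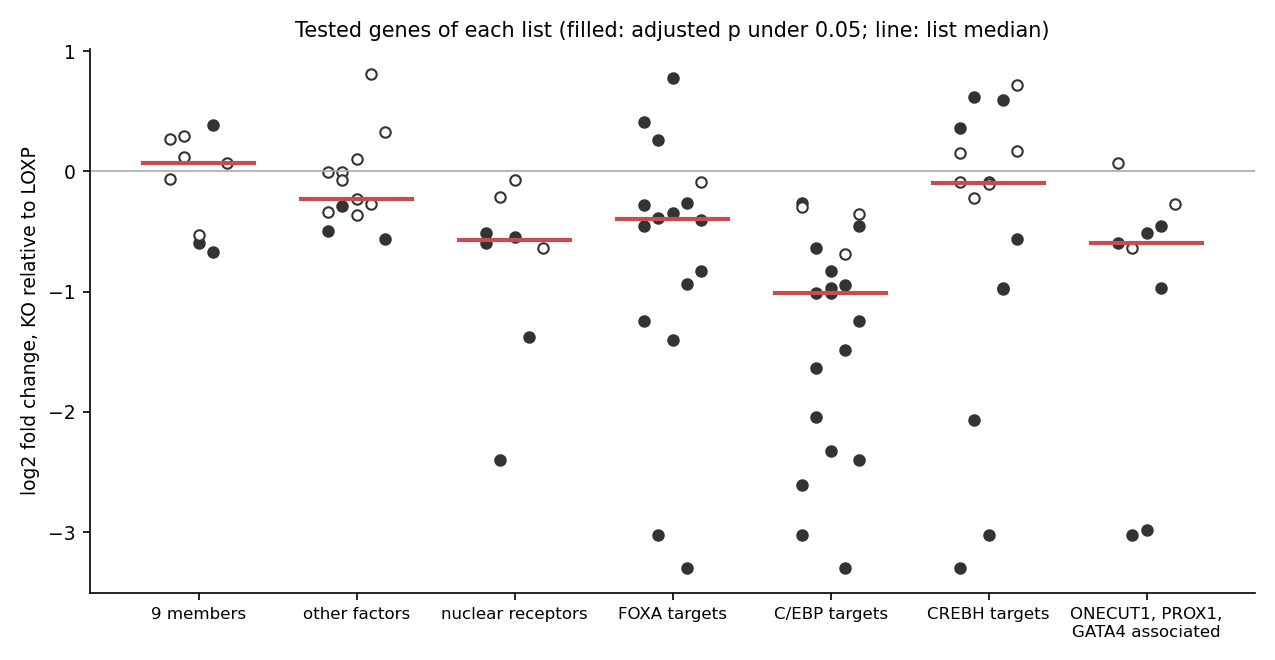
Log2 fold change (KO relative to LOXP) of each tested gene of the 9 factors, further factors, nuclear receptors and target lists, with filled points for an adjusted p under 0.05 and a red line at the list's median. The medians run from 0.07 for the 9 factors to -1.01 for C/EBP targets, and genes held by several lists are drawn in each.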

How the data were processed

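RNA of 6 libraries (3 LOXP, 3 KO, grouped by their labels) was sequenced as paired-end reads. The authors mapped clean reads with HISAT2 and deposited raw counts per gene, which are whole numbers, beside FPKM values. The submitters' processing notes also name fastp, StringTie, edgeR and GRCm39, and the annotation, counting tool and strand setting are not given in the sources used here. Counts were fitted across the whole table in R 4.3.3 with edgeR 4.0.16 (filterByExpr with minimum count 10, TMM, two-sided quasi-likelihood test, Benjamini-Hochberg adjustment over 14151 genes), without a block, since the correlation of deviations passed 0.1 for 1 of the 3 pairs of same-numbered libraries. FPKM gave levels, shares and ratios, which were compared by exact permutation tests in Python 3.11.15.

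The 9 factors and all lists were chosen with earlier results of these data known. The genes named are the factors, *Sting1*, *Hnf4a*, up to 3 called genes per direction and list with the smallest adjusted p, for each cell type the 2 markers with the highest mean FPKM, and genes within 2000 bases of a factor. A gene that this rule names is not reported here. Relatives and other genes beside a factor (*Cebpd*, *Krt19*, *Onecut3*, *Creb3l1*, *Creb3l4*, *Cyp7a1*, *Epo*) were named after their values were seen. *Sympk* (log2 fold change -0.03), *Gm45091*, *A530013C23Rik*, *Gm20649* and *Gm16551*, the other genes near a factor, had adjusted p above 0.05 or too few counts to be tested. Of 17 sinusoidal endothelial markers listed, *Fcn3* was not analysed here. Alternatives were DESeq2 1.42.0, limma 3.58.1 on log2(FPKM + 1) and log2(FPKM + 0.1), other filters, factors and edgeR tests, the replicate block, and each library left out. The exon union length and the TATA box and nuclear receptor motifs were chosen later, with the data in view. Figures were drawn with matplotlib 3.10.9.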

Additional observations from a re-analysis of the deposited data

How the results depend on the processing

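The lower calls of *Prox1* and *Creb3l3* held under all 16 alternatives to the fit, which covered filters, scaling, tests and libraries left out. The 1 higher call, *Foxa1*, was near the threshold: the number of factors called higher was 0 with every gene that had at least 1 count, 2 with total count scaling (with *Gata4*, log2 fold change 0.33, adjusted p = 0.0457) and from 0 to 1 when a library was left out, where *Cebpa* was the call without LOXP3. The labels number the libraries alike in both groups, but same-numbered libraries did not all deviate together (correlations of deviations 0.132, 0.0729 and 0.0256), so the replicate block was an alternative only: it gave 2 higher calls (with *Cebpa*, log2 fold change 0.27, adjusted p = 0.0281), and all other calls among the factors stood. Without the fold criterion the authors' rule would have called 3 factors. Leaving out 1 library gave 4 to 7 of the listed targets and other factors as higher and 34 to 38 as lower, and 1052 to 1515 genes lower and 922 to 1510 higher over the whole table, the fewest without KO2 (1088 lower and 1058 higher without KO1). Among the factors, signs turned for *Foxa2*, *Foxa3* and *Cebpb*, which had not passed: with 1 library left out, the log2 fold change of *Foxa2* ran from -0.0656 (without LOXP1) to 0.272 and was -0.0516 without KO2, that of *Cebpb* from -0.0563 (without LOXP1) to 0.329 and that of *Foxa3* from -0.121 to 0.0215 (without LOXP3). The difference in the *Foxa2* share was -0.764 percentage points in CPM, which carry no length scaling, and ran from -2.14 to 2.26 when a library was left out, and the log2 difference of the *Cebpb* to *Cebpa* ratio from -0.230 to 0.0579 (without LOXP2). Over all results and alternatives, 255 values stayed (on the same side of the threshold and in the same direction, or for a count within 1.5 times, or for a share or ratio within the spread), 16 moved beyond that, 9 changed sign, 7 lost the threshold and 3 gained it. No scaling moved the median of all genes by over 0.1. Depth limits *Onecut1*, at 14 to 26 counts, and *Sting1*, at 15 to 24. The cause of the changes between settings was not tested.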

Other observations

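The gene length behind the deposited FPKM was measured over the whole table, since it sets every comparison of levels between genes. Of 13929 tested genes with exons in GENCODE M21, 12863 (92.4%) had an implied length within 1 base of the sum of their distinct exons, and 2523 (18.1%) within 1 base of the exon union. The median ratio of implied to union length was 1.33. Among the 9 factors the ratio was 1.82 for *Cebpa*, 1.78 for *Gata4*, 1.61 for *Foxa2*, 1.26 for *Creb3l3* and *Onecut1*, 1.21 for *Prox1* and 1.08 for *Foxa1*, and the lengths were equal for *Foxa3* and *Cebpb*. Where annotated exons overlap, the listed FPKM is lower than a union length would give. The length was computed from another annotation release than the table's, matched by gene identifier, after the data had been seen.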
